A study of Rattus norvegicus with 24 samples.

Results

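The genes described here were the collagens and a group of extracellular matrix genes of the kind made by meningeal fibroblasts, read in midbrain RNA of female Long–Evans rats. A probe set, the group of short probes that together read 1 transcript, was taken where its single gene symbol in the annotation of the Affymetrix Rat230_2 array had the form of a collagen chain (Col, a type number, a, a chain number). Probe sets of 17 further genes were taken by name, namely Dcn, Lum, Ogn, Bgn, Fmod, Fn1, Fbn1, Sparc, Postn, Lox, Timp1, Mgp, Vtn, Lama2, Lamb1, Lamc1 and Nid1. The rule found 58 genes on 83 probe sets, of 14217 genes with a single symbol on 20826 probe sets. Collagens made up 41 of the genes, with 11 fibrillar chains, 5 type IV chains and 25 others. After probe sets with low signal were set aside, 81 of the 83 were tested. The 2 left out were the probe set of Col11a1 with the lowest mean signal and 1 of Col4a6.

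The arrays came from rats that had either mated in a paced mating chamber, in which the female controls her contact with the male, or been placed in the chamber without mating. Gland-intact rats were in proestrus, the stage of the cycle at which a female is receptive, and the rats were 50 to 60 days old. The other rats had lost the ovaries (OVX) or the ovaries and adrenals (OVX/ADX) 10 days earlier, and all of these were primed with 10 μg of estradiol benzoate 44 hours before testing, so that no operated rat was without estradiol. The intact arrays were deposited under 2 kinds of title, numbers (number-named) and the word Intact with a number (Intact-named), and whether these were separate rats was not given. The methods describe fewer intact rats than there are intact arrays, so some rats may stand behind more than 1 array, and p-values of fits over both intact sets may then be too small. Each of the 4 sets held 3 paced and 3 chamber arrays, 24 in all, and 2 arrays of the OVX/ADX set carried titles of the number series of the intact rats (2541, paced, and 2530, chamber).

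Collagens are triple helices of 3 chains. The fibrillar types I, III and V form the cables of connective tissue, and in the brain they lie mainly in the meninges and around larger vessels, where fibroblasts make them. Type IV collagen forms the network of the basement membrane, the sheet under vessel endothelium and around the brain surface, in which laminins and the linker nidogen are woven. The small leucine-rich proteoglycans decorin (Dcn), lumican (Lum), osteoglycin (Ogn), biglycan (Bgn) and fibromodulin (Fmod) bind fibrils and limit their thickness, and Lox cross-links them.

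Values are log2 signals, on which a difference of 1 is a doubling. The lowest signals showed 3 separate normalizations, 1 for the number-named arrays (lowest signal 3.58 to 3.65), 1 shared by the Intact-named and OVX arrays (2.30 to 2.39) and 1 for the OVX/ADX arrays (3.38 to 3.43). Signals were therefore compared only inside a normalization. The median of the midbrain dopamine neuron markers was 8.90 to 9.94 on the number-named and 8.06 to 9.004 on the OVX/ADX arrays, but 5.69 to 7.22 on the Intact-named arrays, and 5.86 to 8.44 on the OVX arrays. The median of the cortex and hippocampus markers was 9.76 to 10.15 on the Intact-named and 9.34 to 9.86 on the OVX arrays, against 6.26 to 8.38 on the rest. These medians cross the normalizations and are given with no test. The Intact-named and OVX arrays thus stood apart from the tissue in their label by these markers, and results that rest on them are given set by set. Anterior pituitary markers ranged from a median of 6.63 to 8.88 on the number-named arrays and reached 7.31 on array 2541, against 6.03 to 6.19 on the other OVX/ADX arrays.

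The matrix genes differed more from array to array inside a set than most genes on the array. The median range over the 6 arrays of a set was 0.48, 0.71, 0.69 and 0.48 for the members in the number-named, Intact-named, OVX and OVX/ADX sets, against 0.25, 0.38, 0.29 and 0.24 over the 13081 genes with a single symbol that passed the filter, each likewise on its probe set of highest mean signal. The proteoglycans spread most of the classes, with median ranges of 1.72, 1.46, 1.73 and 2.20, and the fibrillar collagens had 0.38, 0.77, 0.94 and 0.47.

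**Figure D1:**
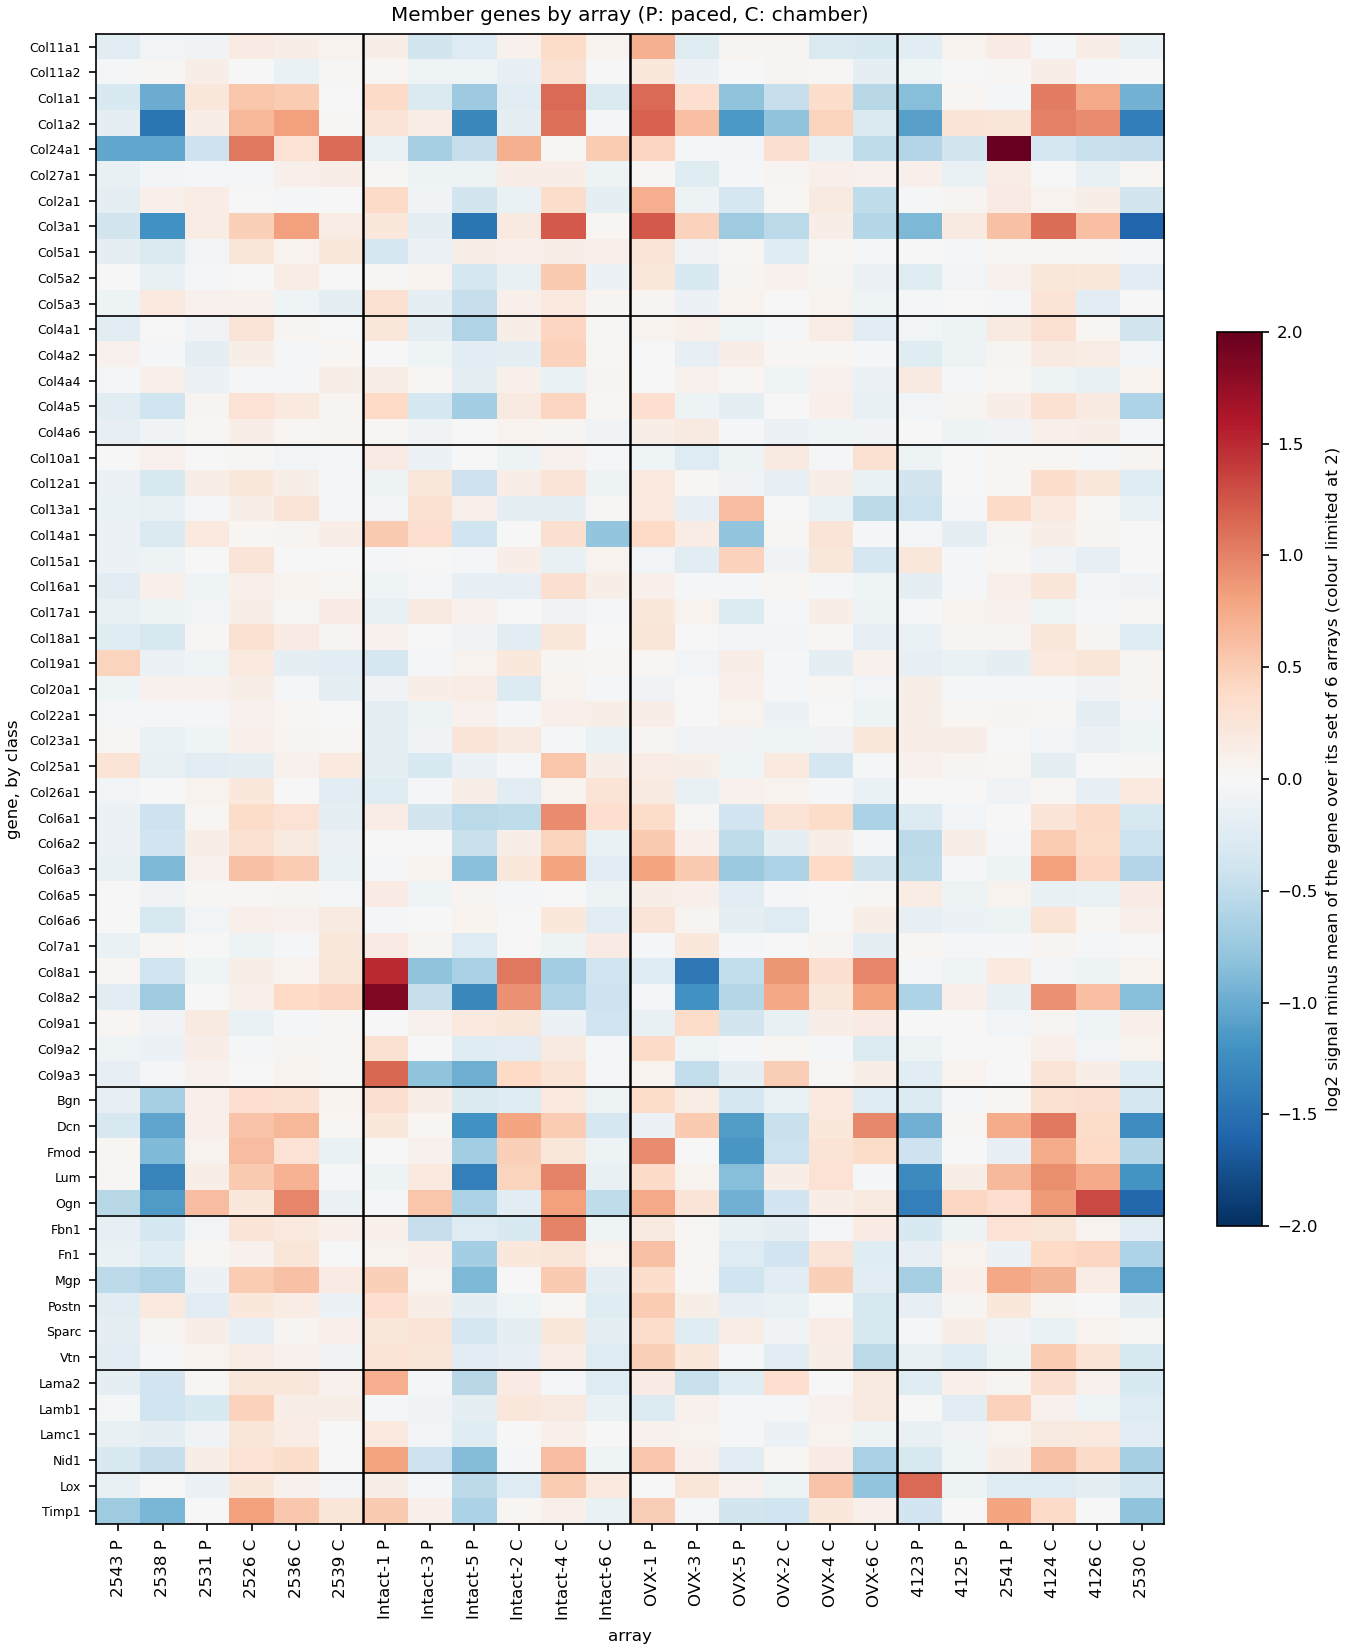
Log2 signal of each member gene (rows, by class) on each of the 24 arrays (columns, by set and mating label), shown as the difference from that gene's mean over the 6 arrays of its set. Single columns, such as 2538, Intact-5 and OVX-1, run 1 colour over many rows, and the paced and chamber columns of a set are not uniform.

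Single arrays carried the extremes of many members at once. In the number-named set the chamber array 2526 was highest for 28 of the 58 genes, where it was highest for 16.6% of all genes, and the paced array 2538 was lowest for 32, against 15.3%. Among the Intact-named arrays Intact-4 (chamber) was highest for 24 genes, against 15.2%, and Intact-5 (paced) was lowest for 33, against 22.6%. OVX-1 (paced) was highest for 34 genes, against 26.9%, while in the OVX/ADX set 4124 (chamber) was highest for 26, against 20.5%, and 2530 (chamber) was lowest for 26, against 21.0%.

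Type I collagen showed these arrays plainly. Col1a1, which encodes the chain present as 2 copies in each type I molecule, was 7.69, 6.999 and 8.22 on the paced and 8.55, 8.51 and 7.98 on the chamber number-named arrays. It was 7.50, 6.84 and 6.40 on the paced and 6.91, 8.26 and 6.83 on the chamber Intact-named arrays, and 8.83, 8.04 and 6.91 on the paced and 7.24, 8.06 and 7.14 on the chamber OVX arrays. In every one of these sets the paced and chamber arrays overlapped. In the OVX/ADX set Col1a1 was 6.10, 6.99 and 6.93 on the paced and 7.98, 7.71 and 6.004 on the chamber arrays, the lowest value being a chamber array and the next lowest a paced one.

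Col3a1, which encodes the chain of type III collagen, followed the same arrays. It was 7.79, 6.95 and 8.31 on the paced and 8.63, 8.98 and 8.30 on the chamber number-named arrays, and 6.92, 6.50 and 5.24 against 6.89, 7.94 and 6.75 on the Intact-named arrays. It was 8.80, 8.04 and 6.85 on the paced and 7.03, 7.71 and 7.01 on the chamber OVX arrays, and 6.42, 7.50 and 7.90 against 8.44, 7.92 and 5.73 on the OVX/ADX arrays. Arrays 2538, Intact-5 and OVX-5, all paced, were the lowest of their sets for each of Col1a1, Col1a2, Col3a1, Dcn, Lum and Ogn, and 4123 (paced) and 2530 (chamber) were the lowest pair of the OVX/ADX set for all 6.

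**Figure D2:**
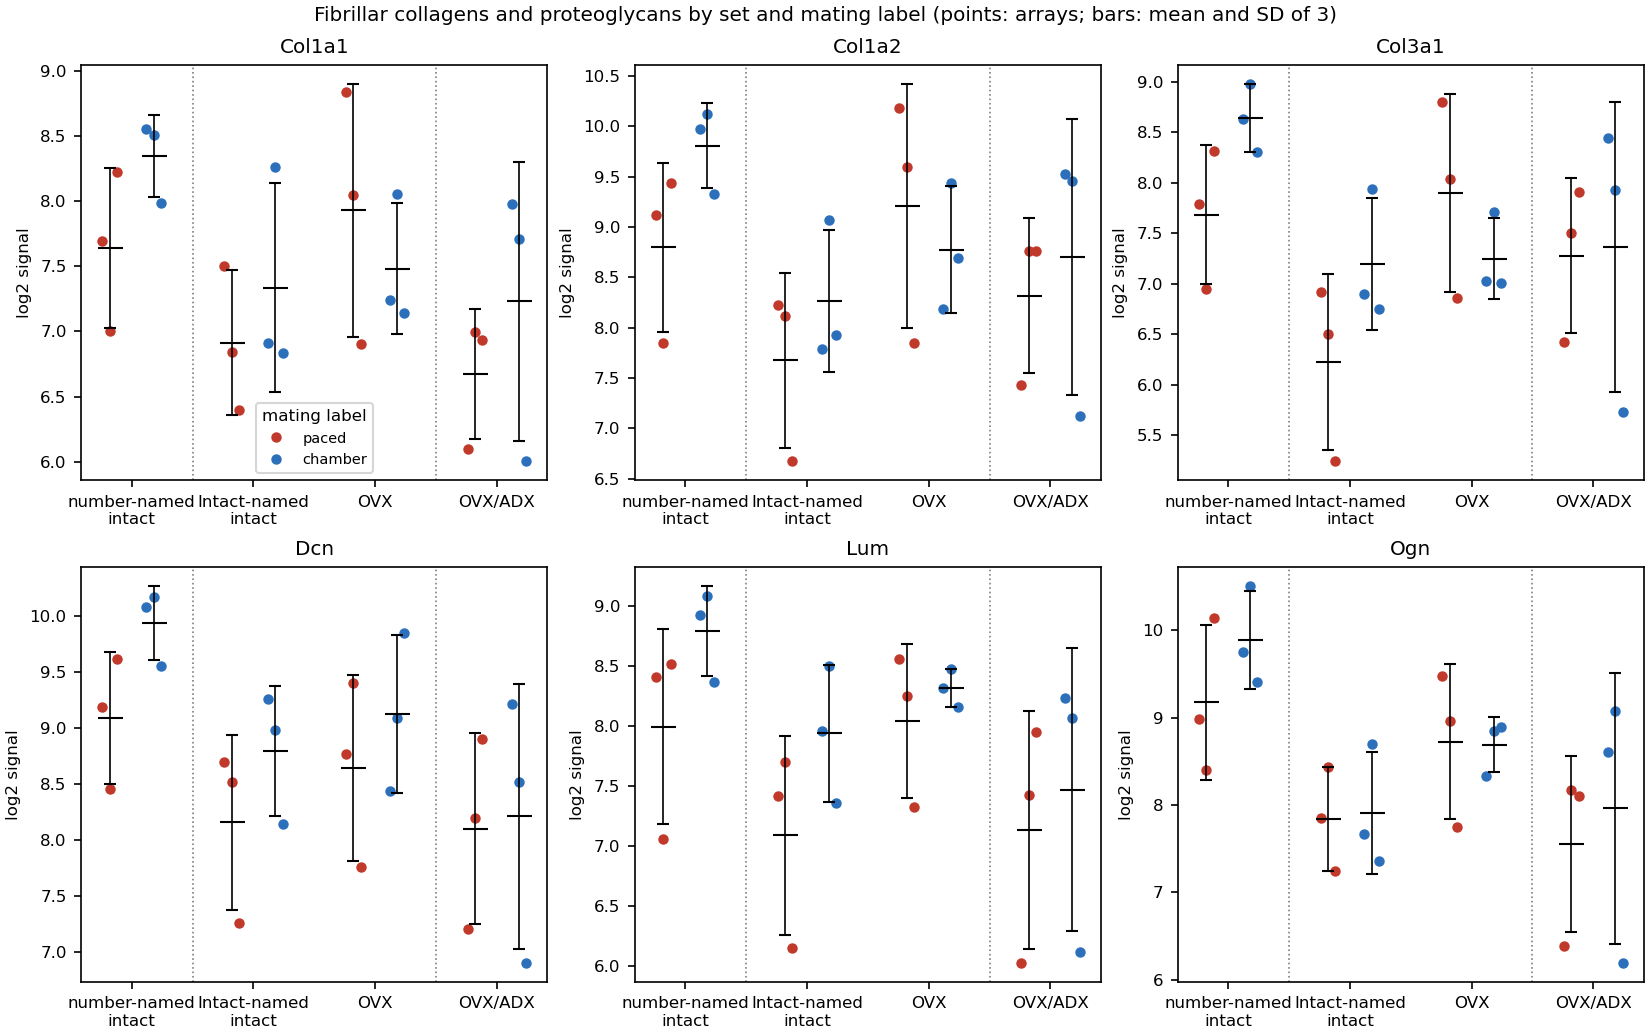
Log2 signal of Col1a1, Col1a2, Col3a1, Dcn, Lum and Ogn on each array, by set, with paced arrays in red and chamber arrays in blue; bars give the mean and SD of 3 arrays and dotted lines part the 3 normalizations. The low paced array of the number-named, Intact-named and OVX sets is the same one in all 6 panels.

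Markers of meningeal fibroblasts that are not members moved with these genes in the number-named, OVX and OVX/ADX sets, and less clearly in the Intact-named set. The median of the 14 markers was 7.21 on array 2538, against 8.14 to 8.63 on the other number-named arrays, and 8.82 on OVX-1, against 7.01 to 8.21 on the other OVX arrays. It was 6.49 on 4123 and 6.65 on 2530, against 7.31 to 8.54 on the other OVX/ADX arrays. Among the Intact-named arrays it was 7.07 on Intact-5 and 7.09 on Intact-6, against 7.34 to 7.80 on the rest. Col1a2 was 6.67 on Intact-5 and 7.93 on Intact-6. Fewer cells of a type and less RNA in each cannot be told apart in tissue RNA, and the part of the amount of meninges in the results below was not tested.

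**Figure D3:**
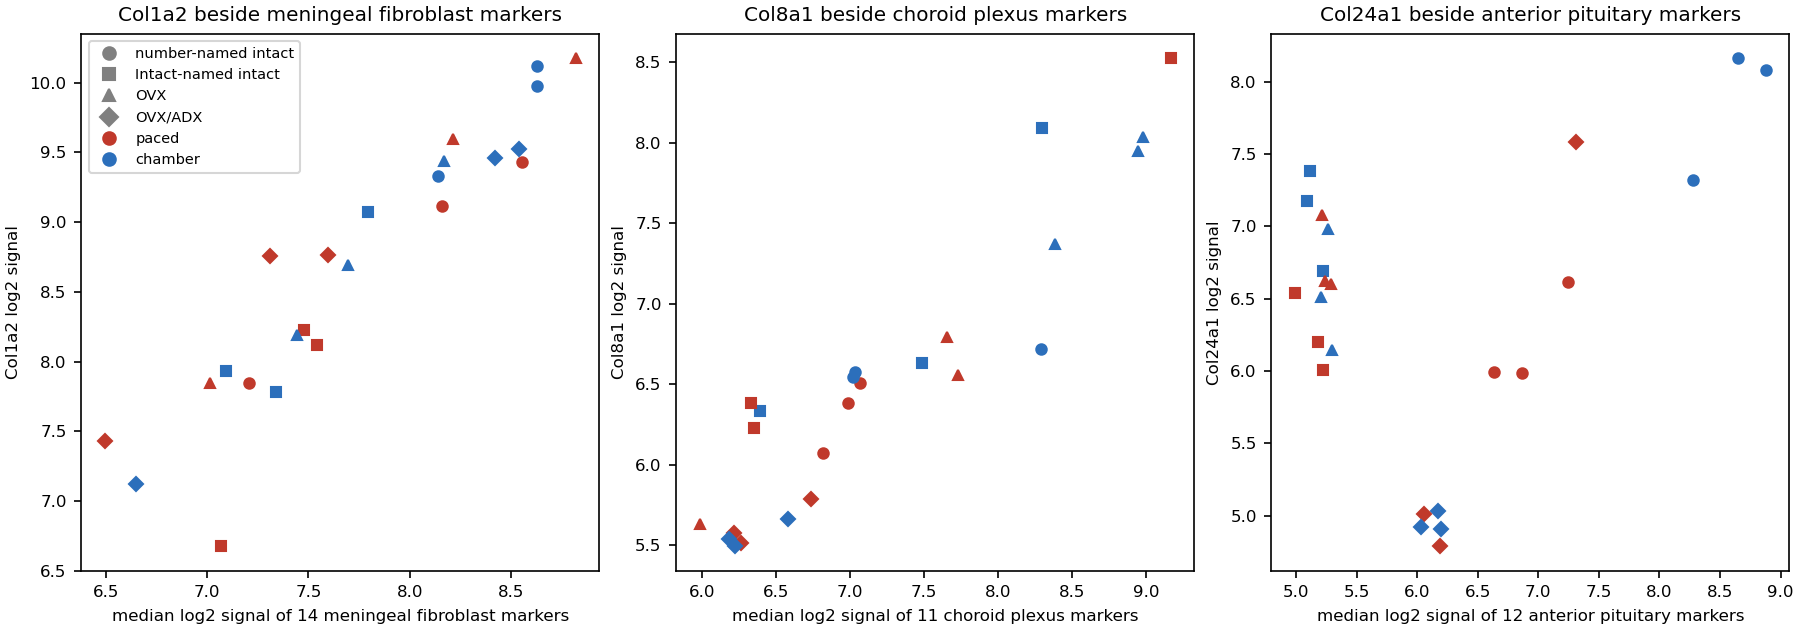
Log2 signal of Col1a2, Col8a1 and Col24a1 (vertical axes) against the median log2 signal of 14 meningeal fibroblast, 11 choroid plexus and 12 anterior pituitary markers (horizontal axes) on the 24 arrays, with sets by marker shape, paced arrays in red and chamber arrays in blue. Col1a2 is at 7.85 on array 2538, where the fibroblast median is 7.21, and at 10.18 on OVX-1, where it is 8.82. These arrays come from different normalizations, so each is read only against arrays of its own normalization.

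The promoters of the genes that follow the same arrays are shown because chains of 1 molecule may share control elements. RefSeq sequence (build GRCr8) was held for 44 of the 58 genes, and Col1a1 and Col3a1 were not among them. For Col1a2, the second chain of type I collagen, the first 100 of the 250 bases before the annotated start are shown (chr4:33518307-33518406, plus strand). They are the part farthest from that start. Capitals mark a CCAAT box on the reverse strand and the sequence TATAAA.
Col1a2: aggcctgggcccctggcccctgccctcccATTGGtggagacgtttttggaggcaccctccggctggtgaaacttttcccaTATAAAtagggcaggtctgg
Searched on both strands in the 250 bases before the start, CCAAT was held by 13 of the 44 members and 34.3% of all 27457 promoters, and TATAAA by 6 members and 13.1% of promoters. The GC box GGGCGG was held by 25 members and 32.4% of promoters. These are matches of letters and were not shown to be used in the midbrain.

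Col4a1 and Col4a2 encode the 2 chains of the most common type IV collagen and are transcribed in opposite directions from 1 short interval. The interval between their starts (chr16:84885521-84885596, plus strand, Col4a1 running forward and Col4a2 backward) is shown with a GC box on the reverse strand in capitals.
Col4a1 and Col4a2: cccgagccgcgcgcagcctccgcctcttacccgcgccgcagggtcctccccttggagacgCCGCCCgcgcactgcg
Col4a1 was 7.60, 7.80 and 7.74 on the paced and 8.07, 7.87 and 7.80 on the chamber number-named arrays, and Col4a2 was 8.71, 8.61 and 8.45 against 8.75, 8.59 and 8.66. The highest array of the set was the same for both genes in 3 of the 4 sets (2526, Intact-4 and 4124), and in the OVX set it was not. These arrays were the highest for 28, 24 and 26 of the 58 members, so the match is not particular to this pair. Array 2543 was the lowest of the number-named set for Col4a1, while for Col4a2 only 2526 was higher.

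Col24a1, a minor fibrillar collagen, was the member with the smallest p-value between paced and chamber arrays in both intact sets. Sequence was held for 3 entries of Col24a1 that differ in their start. The region before the start farthest upstream (chr2:236872333-236872582, plus strand) is shown with a GC box in capitals. After it comes an overlapping 30-base stretch (chr2:236872574-236872603, plus strand) from another entry, with the cyclic AMP response element TGACGTCA in capitals. The element lies before the start of that other entry, but past the end of the first region and so after the first start.
Col24a1 upstream: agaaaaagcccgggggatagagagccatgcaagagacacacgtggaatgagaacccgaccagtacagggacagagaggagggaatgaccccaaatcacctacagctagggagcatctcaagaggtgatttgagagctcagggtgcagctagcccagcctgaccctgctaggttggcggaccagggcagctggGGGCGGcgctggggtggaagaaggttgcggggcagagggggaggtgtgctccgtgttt
Col24a1 element: tccgtgtttagTGACGTCAttgcaagtcag
The same 8 letters were found in 466 promoters, 1.7% of all, and in no other member.

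The first comparison asked whether mating went with a difference in matrix gene expression in intact rats. On the number-named arrays Col24a1 was 5.98, 5.99 and 6.61 on the paced and 8.08, 7.32 and 8.16 on the chamber arrays. Every paced array was below every chamber array, with means of 6.20 ± 0.36 and 7.85 ± 0.46 (SD, n = 3). By the deposited labels the paced arrays were the lower ones, the opposite of the direction in which the study lists Timp1 and its other matrix genes, which were chosen on these samples. The anterior pituitary markers ran the same way as Timp1, and so also against the study's listing. Whether the labels of this set are exchanged was not tested, and every direction given for the number-named arrays rests on them. The difference, paced minus chamber, was −1.66 (SE 0.25, limma, adjusted p = 0.0843), and an exact permutation test over 3 against 3 arrays gave its smallest possible two-sided p of 0.1. Anterior pituitary markers were lower on the same paced arrays, 12 of 12 by value with a median of −2.01, and their part in the Col24a1 difference was not tested. On array 2541 of the OVX/ADX set, where these markers were also high, Col24a1 was 7.58, against 4.79 to 5.03 on the other 5 arrays.

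None of the 81 probe sets passed an adjusted p of 0.05 on the number-named arrays, where 0.0444% of all probe sets did, and the plain analysis of variance called none either. At an unadjusted p under 0.05, 30 members were lower and 0 higher on the paced arrays, against 5.64% lower and 3.7% higher of all probe sets. Lower by value were 70 of the 81, against 44.1% of all probe sets, and the median difference was −0.20 against 0.01 for all. In 25 of the 81 every paced array was below every chamber array, against 8.17% of all probe sets, and in 0 above, against 7.21%. Without array 2526, and likewise without 2536, 17 members had an unadjusted p under 0.05 (5.81% and 6.59% of all probe sets), and there were 41 without 2531 (13.5%).

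Among the classes the proteoglycans had the largest median difference in this set, −0.78. In this class 8 of 8 probe sets were lower by value and 4 had an unadjusted p under 0.05. These 8 probe sets read only 5 genes, and several of them read Ogn, so they are not 8 separate members. Fibrillar collagens had −0.20 (15 of 18 lower), type IV collagens −0.17 (6 of 6), the other collagens −0.12 (26 of 32), the glycoproteins −0.19 (7 of 8), and laminins with nidogen −0.31 (6 of 6). The meningeal fibroblast markers were lower by value for 12 of 14, with a median of −0.41, the midbrain dopamine neuron markers for 11 of 11 (−0.37) and the choroid plexus markers for 9 of 11 (−0.23). Their part in the matrix differences was not tested.

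**Figure D4:**
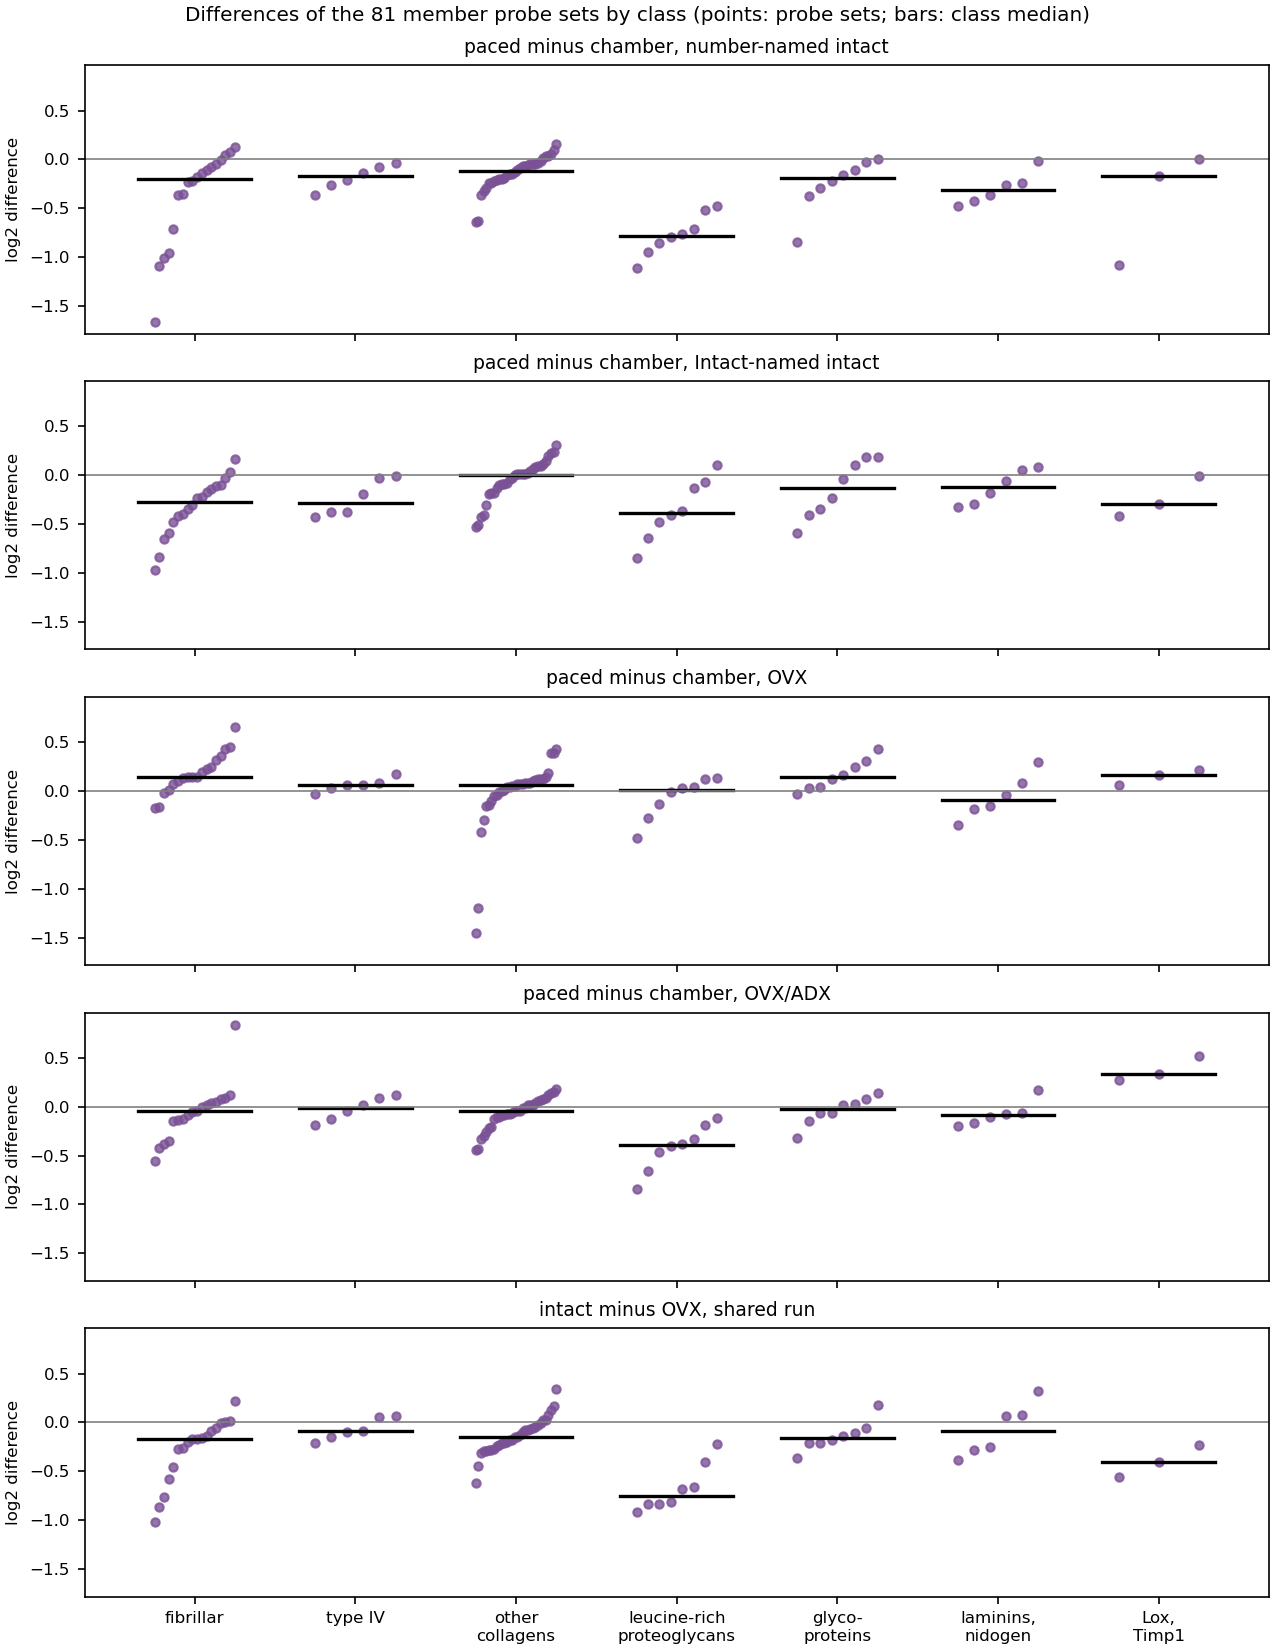
Paced minus chamber difference (log2) of each of the 81 member probe sets, by class and set of arrays, with the class median drawn as a bar. Points of the number-named set lie mostly below 0, and those of the OVX set mostly above it.

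Mgp, the matrix Gla protein that holds back calcification, was 10.35, 10.27 and 10.76 on the paced and 11.39, 11.47 and 11.05 on the chamber number-named arrays. No paced array reached a chamber array, with a difference of −0.84 (SE 0.15, adjusted p = 0.127 by limma). Col5a1, whose chain starts the assembly of type I fibrils, was 8.60, 8.49 and 8.71 on the paced and 9.02, 8.85 and 8.98 on the chamber arrays, again without overlap, with a difference of −0.35 (SE 0.079, adjusted p = 0.192). Timp1, an inhibitor of matrix metalloproteinases, was 6.67, 6.47 and 7.39 on the paced and 8.21, 7.92 and 7.63 on the chamber arrays, a difference of −1.08 (SE 0.24, adjusted p = 0.192). Timp1 did not overlap between the groups either. Differences of Col1a1 (−0.71, SE 0.29) and Col3a1 (−0.96, SE 0.33) had adjusted p-values of 0.515 and 0.415.

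On the Intact-named arrays Col24a1 was 6.54, 6.01 and 6.20 on the paced and 7.38, 6.69 and 7.18 on the chamber arrays. The groups did not overlap, and the difference was −0.83 (SE 0.21, adjusted p = 0.418 by limma), with an exact permutation p of 0.1, the smallest possible. Here the anterior pituitary markers had medians of 4.99 to 5.23 over the 6 arrays, and 6 of the 12 were lower by value on the paced arrays. Their median difference was 0.01, and their part in the Col24a1 difference was not tested. Col25a1, a transmembrane collagen of neurons, was 9.62, 9.52 and 9.71 on the paced and 9.78, 10.38 and 9.94 on the chamber arrays, a difference of −0.41 (SE 0.16, adjusted p = 0.596). Col11a1, a fibrillar chain best known from cartilage, was 7.50, 7.01 and 7.12 against 7.46, 7.75 and 7.46, a difference of −0.34 (SE 0.15, adjusted p = 0.639). Col25a1 did not overlap between the groups and Col11a1 did on this probe set. On the other tested probe set of Col11a1 the groups were just separate, at 4.645, 4.140 and 4.243 paced against 4.649, 5.071 and 4.747 chamber. That probe set was also separate on the number-named arrays, at 4.84, 4.94 and 4.91 against 5.20, 5.03 and 5.16. An exact permutation over both intact sets gave it p = 0.005, the smallest possible, if each array is a separate rat. This probe set was picked after its values were seen, and the p was not adjusted for the number of probe sets. By the same test the Col11a1 probe set of highest mean had 0.3 on the Intact-named arrays and 0.015 over both intact sets.

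Limma and the plain analysis of variance called none of the members in this set, where limma called 0.0148% of all probe sets. At an unadjusted p under 0.05, 5 members were lower and 0 higher, against 4.62% and 3.38%, and 57 were lower by value, against 46.1%. Groups did not overlap for 4 members, all lower, against 6.36% of all probe sets lower and 7.56% higher. Without Intact-3 or Intact-4 there were 2 members at an unadjusted p under 0.05 (4.49% and 4.68% of all probe sets), and without Intact-1, 12 (8.82%). The median difference was −0.13 over all members, and among the classes the other collagens had 0.0036 and the fibrillar and type IV collagens −0.27 and −0.28. Timp1 was 7.08, 6.66 and 5.93 on the paced and 6.59, 6.66 and 6.42 on the chamber arrays, with overlapping groups and a difference of −0.01 (SE 0.27). Without array Intact-5 the Timp1 difference was 0.31.

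**Figure D5:**
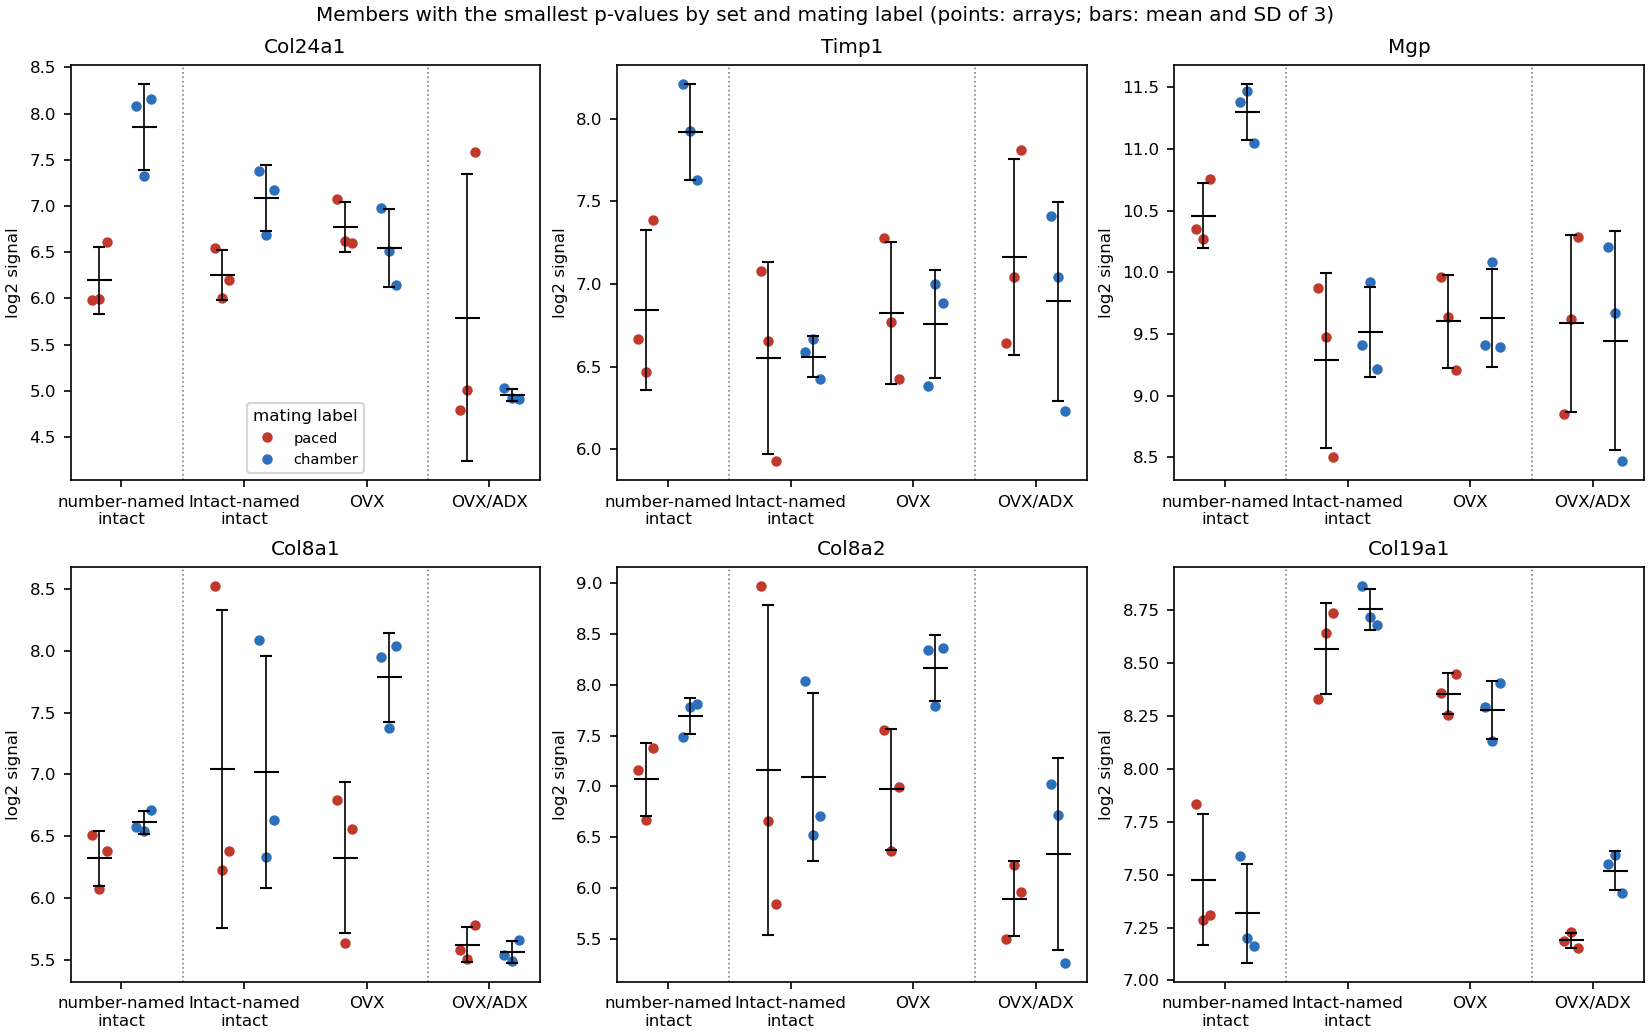
Log2 signal of Col24a1, Timp1, Mgp, Col8a1, Col8a2 and Col19a1 on each array, by set, with paced arrays in red, chamber arrays in blue, and the mean and SD of 3 arrays as bars; dotted lines part the 3 normalizations. Col24a1 is lower on every paced array of both intact sets, and on the OVX/ADX arrays it is near 5 except on array 2541.

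With both intact sets in 1 fit, none of the members was called by either test, as for 0% of all probe sets, and 20 members were lower and 0 higher at an unadjusted p under 0.05, against 3.95% and 3.77%. Lower by value were 66 of 81, against 46%, and the median difference was −0.16. With 1 array left out, the members at an unadjusted p under 0.05 numbered from 11 (without 2538, 6.83% of all probe sets, or Intact-4, 5.61%) to 31 (without Intact-1, 10.5%). With the labels of the number-named arrays turned, 3 members had an unadjusted p under 0.05, against 9.18%, and the median was 0.05. Col24a1 had −1.25 (SE 0.21, adjusted p = 0.446 by limma), and an exact permutation within the sets gave 0.005, the smallest p that 6 against 6 arrays in 2 sets allow, if each array is a separate rat. With the number-named labels turned, the Col24a1 difference was 0.41 (adjusted p = 0.788). Lamb1, a chain of the laminins in vessel basement membranes, was 8.25, 7.88 and 7.97 on the paced and 8.73, 8.41 and 8.40 on the chamber number-named arrays, without overlap. On the Intact-named arrays Lamb1 was 8.83, 8.78 and 8.67 against 9.08, 9.02 and 8.71, which overlapped, and over both sets its difference was −0.33 (SE 0.098, adjusted p = 0.614). Col5a1 had −0.29 (SE 0.075, adjusted p = 0.614), and on the Intact-named arrays it was 7.56, 7.78 and 8.01 on the paced and 7.99, 8.03 and 7.999 on the chamber arrays.

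In OVX rats the smallest p-values between paced and chamber arrays belonged to the network-forming type VIII collagens. Col8a1 was 6.79, 5.63 and 6.56 on the paced and 7.95, 7.37 and 8.04 on the chamber arrays, and Col8a2, its partner chain, was 7.55, 6.37 and 6.99 against 8.35, 7.80 and 8.37. Neither gene overlapped between the groups, and Col8a1 averaged 6.33 ± 0.61 against 7.78 ± 0.36 (SD, n = 3). The differences were −1.46 (SE 0.31) and −1.20 (SE 0.30), with adjusted p-values of 1.00 by limma. Both genes were also lower without overlap on the paced number-named arrays, where Col8a1 was 6.51, 6.07 and 6.38 against 6.58, 6.54 and 6.72 and Col8a2 was 7.16, 6.67 and 7.37 against 7.49, 7.78 and 7.81. In OVX rats the choroid plexus markers were lower by value for 11 of 11, and their median difference was −1.33. On the Intact-named arrays both the Col8a1 groups (8.52, 6.23 and 6.38 paced, 8.09, 6.33 and 6.63 chamber) and the choroid plexus medians (9.17, 6.35 and 6.33 against 8.30, 6.39 and 7.49) overlapped. The part of choroid plexus tissue in the Col8a1 difference was not tested.

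Col10a1, a short-chain collagen of the same network-forming kind, was 4.88, 4.70 and 4.87 on the paced and 5.14, 4.94 and 5.26 on the chamber OVX arrays. These did not overlap either, with a difference of −0.30 (SE 0.11). The signals of Col10a1 were low, at a rank of 18.4% within the OVX arrays. Of the 81 members, 4 were lower and 0 higher at an unadjusted p under 0.05, against 1.55% and 0.873% of all probe sets, and limma called none of the members or of any probe set, nor did the analysis of variance call a member. Only 24 members were lower by value, against 49.1%, and the median was 0.07. Fibrillar collagens had a median difference of 0.14, with 15 of 18 higher by value, and Col1a1 and Col3a1 had 0.45 (SE 0.47) and 0.65 (SE 0.46), both less than the spread between arrays. Without OVX-1 the median was −0.03, and without OVX-5 it was 0.14 and 13 members had an unadjusted p under 0.05, against 3.34% of all probe sets. No overlap was found for 4 lower members (Col10a1, Col27a1, Col8a1 and Col8a2), against 3.5% of all probe sets, and 2 higher ones (Col22a1 and Col4a6), against 2.79%.

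In the OVX/ADX set the smallest p-value belonged to Col19a1, a collagen of basement membrane zones that hippocampal interneurons also make. It was 7.19, 7.23 and 7.15 on the paced and 7.55, 7.59 and 7.42 on the chamber arrays, without overlap (means 7.19 ± 0.04 and 7.52 ± 0.09, SD). This was a difference of −0.33 (SE 0.065, adjusted p = 1.00 by limma). Col6a6, a chain of the beaded type VI filaments, was 4.41, 4.46 and 4.48 against 4.85, 4.60 and 4.68 (difference −0.26, SE 0.076). Col23a1, a transmembrane collagen, was 6.32, 6.31 and 6.19 against 6.13, 6.07 and 6.09 (difference 0.18, SE 0.06). The groups were separate for these 3 genes, and the values of Col6a6 were low on every array.

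Limma called none of the members and 0% of all probe sets in the OVX/ADX set, and the plain analysis of variance called no member. Lower were 2 members and higher 1 at an unadjusted p under 0.05, against 1.55% and 0.921%. Lower by value were 50, against 50.9%, with a median of −0.07, and the groups did not overlap for 2 lower members, against 4.1%, and 4 higher ones, against 2.69%. All 8 proteoglycan probe sets, which read 5 genes, were lower by value, with a median of −0.39. Beside them 12 of 14 meningeal fibroblast markers were lower, with a median of −0.38. Within the 4 arrays titled 41xx alone, 32 members had an unadjusted p under 0.05, against 8.17% of all probe sets, and 60 were lower by value, against 50.1%. The median was −0.20, still with none called, and the other 2 arrays give no test. Without array 4124 the median was 0.02, and without 2530 there were 26 members at an unadjusted p under 0.05, against 4.47% of all probe sets. Lox, which cross-links collagen, was 6.17 on array 4123 and 4.68 to 4.93 on the other 5.

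Over all 4 sets together the fit called none of the members and 0% of all probe sets, and the analysis of variance called none of the members. Unadjusted p-values under 0.05 were found for 2 members, against 4.19% of all probe sets, and without array 2530 for 14, against 5.34%. The 2 in the fit of all arrays were Lum, with −0.56 (SE 0.27), and the second probe set of Lamc1, a laminin chain, with −0.22 (SE 0.078). Next by p, and not under 0.05, were Col4a2 at −0.12 (SE 0.061) and Dcn at −0.52 (SE 0.27), all with an adjusted p of 0.969 by limma. Lower by value were 60 of the 81 members, with a median of −0.09. Lum spanned 7.06 to 9.08 on the number-named, 6.15 to 8.50 on the Intact-named, 7.32 to 8.56 on the OVX and 6.03 to 8.23 on the OVX/ADX arrays, and Dcn 8.45 to 10.18, 7.26 to 9.27, 7.76 to 9.85 and 6.90 to 9.22. Paced and chamber arrays of both genes overlapped in all 4 sets. Col4a2 spanned 8.45 to 8.75, 8.88 to 9.56, 8.87 to 9.17 and 8.33 to 8.74.

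The second comparison, intact against OVX, could be made on signals only between the Intact-named and OVX arrays, which shared a normalization, and there gland group and title cannot be told apart. Limma called none of the members, where 1.44% of all probe sets were called, and the analysis of variance called none. At an unadjusted p under 0.05, 15 members were lower in intact rats and 3 higher, against 9.21% and 11.8%, and 66 were lower by value, against 49.7%. The median difference, intact minus OVX, was −0.18. That of the 8 proteoglycan probe sets, which read 5 genes, was −0.75, all lower by value. Without Intact-5 the members at an unadjusted p under 0.05 numbered 8 (23.5% of all probe sets), and without Intact-4 or OVX-5 they numbered 28 (18.9%) and 27 (19%). Of the meningeal fibroblast markers 13 of 14 were lower, with a median of −0.51, and their part in these differences was not tested.

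Col19a1 spanned 8.33 to 8.86 on the Intact-named arrays and 8.13 to 8.45 on the OVX arrays, overlapping at 1 intact array (Intact-1). Its difference was 0.35 (SE 0.087, adjusted p = 0.0683 by limma), and without Intact-1 it was 0.41 with an adjusted p of 0.0378. Lamb1 spanned 8.67 to 9.08 against 8.26 to 8.71, a difference of 0.32 (SE 0.081, adjusted p = 0.0719). Col26a1, a collagen with domains of the emilin family, was 5.50 to 6.02 against 5.88 to 6.21, a difference of −0.30 (SE 0.096, adjusted p = 0.124). Ogn, with 7.24 to 8.70 against 7.74 to 9.47, had −0.83 (SE 0.31, adjusted p = 0.162). Without OVX-5, 1 of its other probe sets had −1.11 with an adjusted p of 0.0471 by limma. Col1a2 had −1.02 (SE 0.44, adjusted p = 0.212). The 2 probe sets of Lamc1 differed in direction, at 0.07 (SE 0.075) and −0.38 (SE 0.13).

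Whether the mating difference itself depended on ovariectomy was tested as an interaction. None of the members passed, against 0.0074% of all probe sets, and 5 members had an unadjusted p under 0.05, against 4.96%. All 5 had a more positive paced minus chamber difference in OVX than in intact rats. The count of members at an unadjusted p under 0.05 was 1 without OVX-1 (3.56% of all probe sets) and 10 without Intact-1 (6.12%) or OVX-5 (5.63%). Over all members the median interaction was 0.17, with 0.41 for the fibrillar, 0.32 for the type IV and 0.13 for the other collagens. Col24a1 had an interaction of 1.06 (SE 0.34, adjusted p = 0.836 by limma). On the OVX arrays Col24a1 was 7.08, 6.62 and 6.60 on the paced and 6.98, 6.51 and 6.14 on the chamber arrays, which overlapped.

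A second interaction asked whether the mating difference was the same in the 2 sets of intact arrays, and with 0.0814% of all probe sets called it called none of the members, while 5 had an unadjusted p under 0.05, against 10.6%, and from 2 (without 2526, 7.7%) to 10 (without Intact-5, 17.9%) with 1 array left out. Col13a1, a transmembrane collagen of cell adhesions, was 4.83, 4.81 and 4.92 on the paced and 5.08, 5.22 and 4.93 on the chamber number-named arrays, and 4.73, 5.10 and 4.89 against 4.60, 4.62 and 4.81 on the Intact-named arrays. Its interaction, number-named minus Intact-named, was −0.46 (SE 0.15, adjusted p = 0.285). The groups were separate in the number-named set and overlapped in the other. The signals of Col13a1 were low in both, at ranks within the array of 12.2% (number-named) and 17.4% (Intact-named). Timp1 had −1.07 (SE 0.40, adjusted p = 0.358) and Col17a1, a collagen of epithelial attachment, −0.29 (SE 0.12, adjusted p = 0.423). Col17a1 was 5.35, 5.40 and 5.43 against 5.61, 5.52 and 5.65 on the number-named arrays. It lay between 3.25 and 3.58 on the Intact-named ones, where the groups overlapped. Within its own array Col17a1 ranked at 21.4% in the number-named set and at only 3.92% in the Intact-named set. At so low a signal a mating difference could hardly show, so its interaction cannot decide whether the sets differed. Timp1 on the remaining arrays was 7.28, 6.77 and 6.42 paced against 6.38, 7.001 and 6.89 chamber in OVX rats, and 6.64, 7.04 and 7.81 against 7.41, 7.04 and 6.23 in OVX/ADX rats, overlapping in both.

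Levels could be set across all 4 sets only as a gene's rank in percent within its own array, with no test. Sparc, a collagen-binding glycoprotein that astrocytes and endothelium make, ranked at 99.0%, 97.9%, 98.4% and 99.1% in the number-named, Intact-named, OVX and OVX/ADX sets, an order whose neighbours were close. Mgp ranked at 94.3%, 81.4%, 82.8% and 88.3%. Postn, a glycoprotein of fibrous tissue, was at 8.97%, 41.5%, 41.4% and 9.67%, and Col2a1, the cartilage collagen, at 52.1%, 14.4%, 17.0% and 57.0%. These 2 genes split the sets in the same way as the tissue markers did, in opposite directions. By this measure 22 of the 58 genes were higher on the Intact-named than on the number-named arrays, and the same 22 were when all 24 arrays were normalized together.

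Genes of the surrounding pathway were read from lists of collagen processing, degradation, receptors, other basement membrane, other matrix and transforming growth factor β signalling. On the number-named arrays 19 of 22 collagen processing genes were lower by value on the paced arrays, with a median of −0.19 and none called. P4hb, a subunit of the enzyme that hydroxylates collagen prolines, had −0.55 (SE 0.086, adjusted p = 0.0873), and Pcolce, which enhances the cleavage of procollagen ends, had −1.20 (SE 0.33, adjusted p = 0.292), against 0.01 on the Intact-named arrays. Of the other matrix genes 24 of 29 were lower, with a median of −0.18, among them the proteoglycan osteomodulin (Omd) at −0.74 (SE 0.20, adjusted p = 0.288). Receptors were lower for 14 of 21 genes, other basement membrane genes for 8 of 10, degradation genes for 6 of 11 and transforming growth factor β genes for 6 of 13, again with none called. In the OVX set Mmp2, a gelatinase, had −0.63. Between Intact-named and OVX arrays P4ha1, the catalytic subunit of the prolyl hydroxylase, was the only pathway gene called, where limma called 1.44% of all probe sets. It was higher in intact rats, at 9.81 to 10.12 against 9.32 to 9.50, a difference of 0.54 (SE 0.064, adjusted p = 0.0159).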

How the data were processed

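The authors deposited 1 table of log2 signals from 24 Affymetrix Rat230_2 arrays; the submitters' processing notes name RMA in Affymetrix Expression Console 1.4, whereas the methods name GCRMA. Values were used as deposited. Of 31099 probe sets, 57 controls were dropped and 27035 were kept, above the 20th percentile in at least 3 arrays; 436 with several symbols and 9780 with none were tested but not named. Differences were fitted in R 4.3.3 with limma 3.58.1 over all probe sets kept (lmFit and eBayes), two-sided, with Benjamini-Hochberg adjustment, for paced minus chamber in each set and over sets with a set term, for intact minus OVX, and as interactions. The methods' analysis of variance, array weights, quantile and median scaling, other filters, a replicate block, title series, turned labels of the number-named arrays and leaving out each array were alternatives. A gene's representative is its probe set of highest mean. Members and lists were chosen with earlier results of these data known. Text names Col1a1, Col3a1, Col24a1, Timp1 and the 3 genes of smallest p per comparison, among others chosen after their values were seen. The fits were tested on simulated data. Nothing says the arrays were separate rats, so p-values measure only the spread between arrays, whose number limits precision. Promoter sequences are RefSeq's (GRCr8).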

Additional observations from a re-analysis of the deposited data

Results flagged for a closer look

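In 11 of 232 groups, each the 6 arrays of 1 set for 1 gene, a single array lay farther from the rest than Dixon's 95% limit for the gap over the range allows. Chance alone puts about 1 in 20 groups there, and groups of 3 arrays were not examined. Below the others lay Lum on 2538 (7.06, others 8.37 to 9.08), Lum on OVX-5 (7.32, others 8.15 to 8.56), Col14a1 on OVX-5 (4.59, others 5.35 to 5.79) and Fn1, fibronectin, on Intact-5 (8.71, others 9.47 to 9.64), the arrays on which many matrix genes were lowest. Also below were Col2a1 on 2530 (7.01, others 7.34 to 7.53), Col25a1 on 4124 (9.84, others 10.01 to 10.12) and Col27a1 on OVX-3 (8.15, others 8.36 to 8.49). Above lay Col24a1 on 2541 (7.58, others 4.79 to 5.03), Lox on 4123 (6.17, others 4.68 to 4.93), Col11a1 on OVX-1 (8.10, others 7.08 to 7.44) and Col15a1 on 2526 (7.92, others 7.55 to 7.65).

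For 4 collagens the paced and chamber arrays did not overlap in 1 direction in 1 set and in the opposite direction in another, as for 3.36% of all genes and 6.9% of the 58 members, and the difference between the sets was not tested. Paced minus chamber, Col22a1 had −0.07 in the number-named set against 0.14 in OVX and 0.14 in OVX/ADX, and Col23a1 had −0.13 in the number-named set against 0.18 in OVX/ADX. Col25a1 had −0.41 in the Intact-named set against 0.12 in OVX/ADX, and Col4a6 had −0.14 in the number-named set against 0.18 in OVX.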

How the results depend on the processing

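With array quality weights limma called 1 member on the number-named arrays (Mgp, −0.96, adjusted p = 0.0493; 0.414% of all probe sets), 2 on the Intact-named arrays (Col11a1, second probe set, −0.62, adjusted p = 0.0427, and Col24a1, −1.09, adjusted p = 0.026; 3.76%), 1 between intact and OVX (Col19a1, 0.41, adjusted p = 0.028; 2.66%) and 4 in the interaction of mating with the set of intact arrays (Bgn, Timp1, Col13a1 and Col17a1; 8.57%). None of these was called without weights on the same arrays, and the cause was not tested. Col17a1 was near the bottom of the signals on the Intact-named arrays, at a rank of 3.92%, so its call cannot be read as a difference between the sets. Col19a1 was called without weights only when Intact-1 was left out. Leaving out 1 array at a time gave 0 to 1 members between intact and OVX and 0 to 1 in the interaction with set (Col9a3, without Intact-1). A replicate block on the shared title numbers of the Intact-named and OVX arrays gave 1 member between intact and OVX (Ogn, another of its probe sets, −0.83, adjusted p = 0.0273; 1.39% of all probe sets) and 0 in the interaction. The numbers did not pair the arrays, since same-numbered deviations correlated by 0.314, 0.067, 0.042, 0.018, 0.052 and 0.166. Under the other alternatives the count of called members was 0, and the median differences moved by less than the spread, except in 1 fit. That fit was over both intact sets with paced and chamber turned on the number-named arrays, an alternative chosen after seeing the data. The turned labels gave a median of 0.0202 over all 24 arrays, a move within the spread, and 0.0459 over both intact sets. In the latter Col24a1 was at 0.412, Col5a1 at 0.0622, Lamb1 at 0.150, Col1a1 at 0.144 and Timp1 at 0.536. All were of opposite sign to the values with the labels as deposited. The Timp1 difference on the Intact-named arrays changed sign to 0.0186 after quantile scaling, 0.0215 with array medians subtracted and 0.0704 with array weights, and it ranged from −0.27 (without Intact-1) to 0.31 (without Intact-5) with 1 array left out, above 0 also without Intact-2 or Intact-4. That of Col1a1 ranged from −0.71 (without Intact-1) to 0.0417 (without Intact-4). The plain analysis of variance had 13, 1, 11, 3, 3, 1, 13, 3 and 3 members at an unadjusted p under 0.05, for mating on the number-named, Intact-named, both intact, OVX, OVX/ADX and all arrays, intact against OVX, and the interactions with OVX and with set. The shares of all probe sets were 8.58%, 7.27%, 7.51%, 2.62%, 2.79%, 4.13%, 20%, 4.78% and 10.1%. With 3 arrays a group, no exact test within a set can reach 0.05.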
